A study of Mus musculus with 2 samples.

Results

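The 10 genes of the Notch pathway followed here were measured across the cell classes of sorted tumor endothelium: the receptors *Notch1*, *Notch4* and *Notch3*, the ligands *Jag1*, *Jag2* and *Dll1*, the DNA-binding factor *Rbpj*, and the target genes *Hey1*, *Heyl* and *Hes1*. They are 10 of the 32285 genes counted. The members were chosen as a pathway and not by a threshold on their values, and all 10 were detected in both libraries. Each was read as unique molecular identifiers (UMIs, 1 per captured transcript) relative to all UMIs of a class in a library, scaled to 1000000 and called CPM, in endothelial classes and in pericytes and smooth muscle.

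The study deleted *Dnmt1*, which encodes the maintenance DNA methyltransferase, in endothelium and sequenced single cells from tumors of the mouse melanoma line YUMMER1.7. There was 1 control library and 1 Dnmt1iECKO library. Each was made from live CD31+CD45- cells pooled from 3 mice, so no replicate stood behind any value, no test between the groups was possible, and differences between animals cannot be told apart from genotype. The mice were female and 8 to 10 weeks old. The Dnmt1iECKO genotype was labelled Cdh5CreERT2;Dnmt1fl/fl;ZsGreenlsl/lsl, in which a tamoxifen-activated Cre under the endothelial *Cdh5* promoter deletes the floxed gene. The control was labelled C57BL/6, whereas the methods of the study describe controls carrying the same Cre and reporter, so whether Cre and tamoxifen were shared by both groups could not be settled. The labels place the tumors under the skin and call the cells melanoma cells. The study, however, describes the sorted cells of these libraries as coming from lung tumors, seeded through the tail vein. The libraries contained alveolar epithelial cells that carried *Sftpc*. The Cre driver acts in endothelium, and pericytes and smooth muscle were not its intended target.

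Notch receptors are single-pass membrane proteins that bind Jagged and Delta-like ligands on a neighbouring cell. Binding exposes the receptor to successive cleavages, and the freed intracellular domain enters the nucleus, joins *Rbpj* and turns on target genes of the Hes and Hey families. In blood vessels the pathway is known for arterial identity and for limiting sprouting through *Dll4* and *Notch1*, while *Notch3* is the characteristic receptor of mural cells, the pericytes and smooth muscle that wrap the endothelial tube.

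The libraries listed 9301 control and 9522 Dnmt1iECKO cells with 123830489 and 141433493 UMIs, and 7764 and 7839 cells passed the filters. Of these, 1232 control and 4317 Dnmt1iECKO cells lay in clusters named immune from *Ptprc*. The libraries thus differed in cell composition as well as in genotype, and the part of this in the ratios below was not tested. Of all listed barcodes, 29 occurred in both libraries. The endothelial gate, at least 1 UMI of *Cdh5* or *Pecam1* and none of *Ptprc*, took 5523 control and 2406 Dnmt1iECKO cells. Clusters were built without the 10 members and named from markers. The artery-like class (*Gja5*, *Bmx*) held 117 and 86 gated cells, the general capillary-like class (*Kit*, *Bmp6*) 1201 and 425, the aerocyte-like class (*Ednrb*, *Car4*), a lung capillary type, 1347 and 442, and the vein-like class (*Slc6a2*, *Selp*) 131 and 152, control first. A further cluster led by *Vegfc* and named vein-like held 117 and 72 cells, interferon-responding endothelium 603 and 208, proliferating endothelium 122 and 61 and lymphatic-like endothelium 31 and 16. The interferon-responding cluster was led by *Adamts9*. Of the 6 interferon markers 5 met the naming limits there, but only 1, *Ifit1*, was among its 10 leading genes. In the *Vegfc*-led cluster the 8 vein markers summed to 1955 and 1951 CPM, against 7885 and 9778 CPM in the vein-like class. They were 317 and 234 CPM in general capillary-like cells. Its *Selp* was 17.1 and 41.3 CPM, against 2206 and 3405 CPM in the vein-like class. Its *Kit* was 490 and 394 CPM, against 78.6 and 88.4 CPM there and 600 and 582.5 CPM in general capillary-like cells. It thus lay between those classes in these markers. The pericyte-like cluster held 139 and 69 cells and the smooth muscle-like cluster 58 and 69. *Dnmt1* itself stood at 50.6 CPM in control and 26.9 CPM in Dnmt1iECKO gated cells of clusters with at least 500 CPM of *Cdh5* and no name of another cell type, called *Cdh5*-high clusters. It was 40.1 and 15.5 CPM (log2 ratio -1.37 [-2.10, -0.70]) in pericyte-like cells and 28.4 and 26.6 CPM (-0.09 [-0.94, 0.74]) in smooth muscle-like cells. Of the pericyte-like cells, 94 and 43 passed the endothelial gate. Their cluster held *Cdh5* at 950 and 1099 CPM, against 758 and 805 CPM in the vein-like class. The part of endothelial RNA in the pericyte-like *Dnmt1* values was not tested. A 3′ UMI need not lie in the deleted exons, so the *Dnmt1* values check the genotype only in part.

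Where 2 values are given side by side, control comes first. Intervals in brackets are 95% intervals, exact Poisson for a level and exact conditional for a ratio of counts. They cover counting error only and say nothing of the spread between mice. A gene was called past the fold where its log2 ratio, Dnmt1iECKO over control, was at least 0.5 in size with an interval that left out 0, at 50 or more UMIs in both libraries together. Levels in alveolar type 2-like cells (AT2), which should lack most vascular genes, served as the background of free RNA. Where a class had 0 UMIs of a gene, the floor of 3 counts in that class is given in place of an interval.

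The receptors *Notch4* and *Notch3* divided the vessel wall between them. Stretches upstream of both genes are given because *Notch4* was an endothelial gene and *Notch3* a mural gene in these cells. They run from 250 to 51 bases before the RefSeq gene start on GRCm38.p6, 5′ to 3′ on the strand of the gene, at chr17:34564045-34564244 for *Notch4* (plus strand) and chr17:32166941-32167140 for *Notch3* (minus strand), with GGAA or its reverse complement TTCC, the core bound by ETS factors, in capitals:

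Notch4: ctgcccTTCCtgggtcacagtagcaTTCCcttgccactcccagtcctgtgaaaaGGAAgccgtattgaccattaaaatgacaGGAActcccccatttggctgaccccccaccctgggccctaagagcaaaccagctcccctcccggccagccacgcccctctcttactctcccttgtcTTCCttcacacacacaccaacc

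Notch3: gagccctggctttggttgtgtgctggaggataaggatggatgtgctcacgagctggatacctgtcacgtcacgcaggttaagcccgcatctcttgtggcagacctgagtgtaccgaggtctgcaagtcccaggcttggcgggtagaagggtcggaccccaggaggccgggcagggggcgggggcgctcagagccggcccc

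The *Notch4* stretch held 5 copies of GGAA or TTCC and 3 CG dinucleotides, whereas the *Notch3* stretch held 0 copies and 11 CG dinucleotides. Of 32851 mouse gene starts with a stretch of the same length, 89.2% held at least 1 copy of GGAA or TTCC, with a median of 2, and 89.1% held a CG, with a median of 4. The RBPJ core TGGGAA or its reverse complement TTCCCA, each copy of which contains a GGAA or TTCC, was in neither stretch and in 17.9% of all. These letters describe the windows and are not binding sites. Of the 10 members, 7 had an entry in the RefSeq table used.

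*Notch4*, an endothelial receptor, lies at chr17:34564268-34588503 on the plus strand of GRCm38. It was 90.9 CPM [85.4, 96.7] in control and 85.8 CPM [76.5, 95.8] in Dnmt1iECKO general capillary-like cells. Artery-like cells held 69.6 and 71.1 CPM and *Vegfc*-led vein-like cells 75.3 and 74.5 CPM, with intervals that overlapped between the libraries. Aerocyte-like cells (42.4 and 58.6 CPM) and *Selp*-led vein-like cells (32.6 and 39.9 CPM) were lower, and general capillary-like cells exceeded vein-like cells 2.79-fold [2.21, 3.57] in control and 2.15-fold [1.72, 2.71] in Dnmt1iECKO. In cells with *Slc6a2* and *Selp* instead of the vein-like cluster *Notch4* was 19.8 and 44.4 CPM, a log2 ratio of Dnmt1iECKO over control of 1.17 [0.39, 2.00] against 0.29 in the cluster. Lymphatic-like cells had 5 *Notch4* UMIs in control and 0 in Dnmt1iECKO, where the floor of 3 counts was 12.4 CPM. AT2 cells had 2.29 and 1.84 CPM. *Notch4* was therefore a blood vascular receptor here, with its high levels in general capillary-like, arterial and *Vegfc*-led cells.

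*Notch1*, the receptor that opposes tip-cell behaviour, lies at chr2:26457903-26516663 on the minus strand. It was spread over all endothelial classes, and artery-like cells were above the other endothelial classes in both libraries. Artery-like cells held 268 CPM [241, 298] in control and 282 CPM [251, 317] in Dnmt1iECKO. Interferon-responding cells held 220 and 225 CPM, general capillary-like cells 199 and 193 CPM, aerocyte-like cells 199 and 193 CPM, and vein-like cells 156 and 151 CPM. The artery-like level exceeded the vein-like level 1.72-fold [1.48, 2.00] in control and 1.87-fold [1.60, 2.18] in Dnmt1iECKO. General capillary-like and aerocyte-like cells did not differ from each other beyond their intervals. AT2 cells had 30.0 and 31.2 CPM.

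*Notch3*, at chr17:32120820-32166852 on the minus strand, was a mural gene. It was 333 CPM [310, 357] and 305 CPM [277, 334] in pericyte-like cells and 343 CPM [308, 380] and 250 CPM [218, 286] in smooth muscle-like cells, control first. In the classes of blood endothelium it was at most 3.87 CPM, the value of control artery-like cells, which rested on 5 UMIs. Pericyte-like cells exceeded general capillary-like cells 263-fold [156, 484] in control and 278-fold [108, 1025] in Dnmt1iECKO. After thinning each cell to 2000 UMIs, 59 of 127 control cells (46.5% [37.6, 55.5]) and 33 of 66 Dnmt1iECKO cells ([37.4, 62.6] percent) of the pericyte-like cluster carried a *Notch3* UMI (86.3% and 88.4% unthinned). No AT2 cell did after thinning, 0 of 116 and 0 of 47, which with exact intervals allows up to 3.13% and 7.55%. Their median depths were 29237 and 34300 UMIs against 12989 and 14949 in pericyte-like cells.

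The pericyte-like cluster also carried endothelial RNA, with *Cdh5* at 950 CPM in control and 1099 CPM in Dnmt1iECKO. Cells of the mural clusters without any *Cdh5* or *Pecam1* UMI were therefore read separately, 35 and 14 pericyte-like and 34 and 51 smooth muscle-like cells. In those pericyte-like cells *Notch3* was 761 and 868 CPM, and *Notch1* was 199 and 193 CPM. *Notch4* had 2 UMIs there in control (11.4 CPM) and 0 in Dnmt1iECKO, where the floor of 3 counts was 41.3 CPM. In the smooth muscle-like cells so chosen *Notch3* was 350 and 270 CPM and *Notch1* 26.0 and 36.9 CPM, below the pericyte-like level of *Notch1* in both libraries.

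*Notch2*, the remaining receptor, was outside the named members but belongs beside them. It was 139 and 112 CPM in lymphatic-like cells, 88.6 and 84.3 CPM in pericyte-like cells and 63.4 and 63.6 CPM in smooth muscle-like cells, control first. In blood endothelium its levels by class ran from 4.64 to 17.2 CPM.

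**Figure D1:**
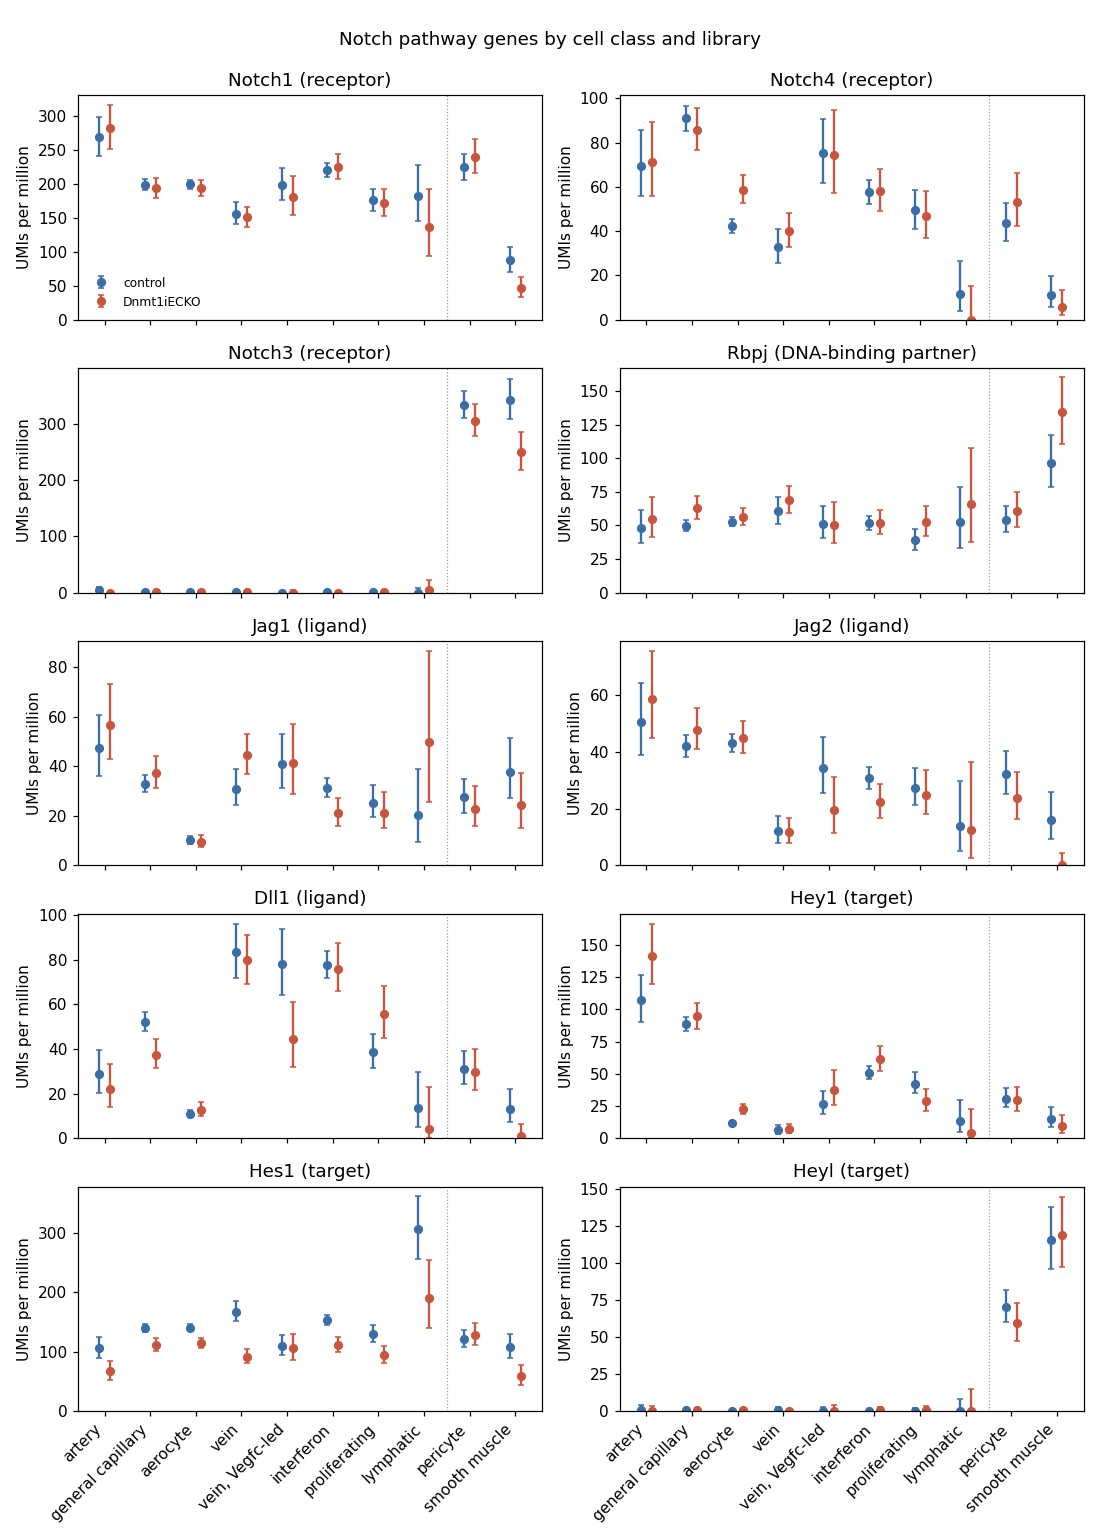
Levels of the 10 members in CPM on linear axes from 0, 1 panel per gene with its own scale, for each endothelial class and, right of the dotted line, both mural classes, with 1 point per library and bars for the exact 95% Poisson interval. *Notch3* and *Heyl* stand high in pericyte-like and smooth muscle-like cells alone among these classes, while *Hey1* spans from 4.13 CPM, 1 UMI, in Dnmt1iECKO lymphatic-like cells to 141 CPM in Dnmt1iECKO artery-like cells.

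The ligands split by vessel type. *Jag1*, a Jagged ligand of endothelium and mural cells, lies at chr2:137081456-137116644 on the minus strand. It was 47.2 CPM [36.1, 60.6] and 56.7 CPM [43.1, 73.1] in artery-like cells, control first, and 10.2 and 9.60 CPM in aerocyte-like cells. Artery-like cells exceeded aerocyte-like cells 4.61-fold [3.38, 6.21] in control and 5.90-fold [4.02, 8.66] in Dnmt1iECKO. General capillary-like cells held 32.9 and 37.3 CPM, *Vegfc*-led vein-like cells 41.1 and 41.3 CPM, and *Selp*-led vein-like cells 30.9 and 44.4 CPM. Both capillary types thus differed in *Jag1*, with the general capillary-like level 3.22-fold [2.67, 3.88] and 3.88-fold [2.82, 5.40] above the aerocyte-like level. AT2 cells held *Jag1* at 22.0 CPM [17.4, 27.5] and 19.0 CPM [12.9, 26.9], above the aerocyte-like level in both libraries, and immune cells 15.8 and 6.89 CPM, so the AT2 level was not read as background for this gene. Thinned to 5000 UMIs, a *Jag1* UMI was found in 10.6% of control AT2 cells (44.0% unthinned, median depth 29237 UMIs), against 4.38% of immune cells (12.5% unthinned, 11259.5 UMIs), 4.52% of aerocyte-like (9.87% unthinned, 11075 UMIs) and 13.3% of general capillary-like cells (23.9% unthinned, 8625 UMIs).

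*Jag2*, the other Jagged ligand, lies at chr12:112907819-112929776 on the minus strand. It was shared by arteries and both capillary types, at 50.3 and 58.6 CPM in artery-like, 42.0 and 47.7 CPM in general capillary-like and 43.1 and 44.9 CPM in aerocyte-like cells. Their intervals overlapped within each library. Vein-like cells had 12.0 CPM [7.99, 17.4] and 11.7 CPM [7.93, 16.6], and artery-like cells exceeded them 4.18-fold [2.65, 6.77] in control and 5.02-fold [3.21, 8.01] in Dnmt1iECKO.

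*Dll1*, a Delta-like ligand, lies at chr17:15367354-15376872 on the minus strand. Between artery-like and vein-like cells it had the order opposite to that of *Jag2*. Vein-like cells held 83.3 CPM [72.0, 95.9] in control and 79.8 CPM [69.4, 91.3] in Dnmt1iECKO, and interferon-responding cells 77.7 and 76.1 CPM. General capillary-like cells held 52.2 and 37.5 CPM, artery-like cells 28.6 and 22.1 CPM and aerocyte-like cells 11.0 and 12.9 CPM. The vein-like level exceeded the artery-like level 2.91-fold [2.04, 4.26] and 3.61-fold [2.34, 5.82], and the aerocyte-like level 7.56-fold [6.14, 9.30] and 6.20-fold [4.75, 8.18]. In mural cells without *Cdh5* and *Pecam1* UMIs, *Jag2* had 0 counts in all 4 groups of cells, with floors of 17.0 and 41.3 CPM in pericyte-like cells and of 6.00 and 5.54 CPM in smooth muscle-like cells.

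*Dll4*, the Delta-like ligand of arteries and tip cells, was 127 and 150 CPM in artery-like cells and 11.6 and 11.3 CPM in *Selp*-led vein-like cells, a fold of 10.9 [7.25, 17.1] and 13.3 [8.94, 20.3]. General capillary-like cells (86.6 and 90.7 CPM) and aerocyte-like cells (85.1 and 91.7 CPM) lay between them. *Dll1* and *Dll4* thus ran in opposite orders between vein-like and artery-like cells in both libraries. Of the remaining ligands, *Dlk1* had 0 UMIs in all of these endothelial and mural classes, and *Dll3*, *Dlk2* and *Dner* had at most 4 UMIs in any of them.

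*Rbpj*, through which all 4 receptors act on DNA, lies at chr5:53466152-53657362 on the plus strand and had a narrow range across endothelium. Its levels by endothelial class ran from 38.9 CPM [31.7, 47.3] in proliferating to 60.6 CPM [50.98, 71.4] in vein-like control cells, intervals that did not overlap, and from 50.4 to 68.9 CPM in Dnmt1iECKO. In pericyte-like cells it was 54.0 and 60.7 CPM and in smooth muscle-like cells 96.5 and 134 CPM. Its high levels lay outside vessels, at 334 and 365 CPM in a cluster led by *Hmga2*, 273 and 261 CPM in one led by *Ube2c* and 208 and 183 CPM in immune cells. AT2 cells held 34.0 and 42.8 CPM, so the level in all 8 endothelial classes stood less than 1 doubling above that of AT2 cells in the same library.

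**Figure D2:**
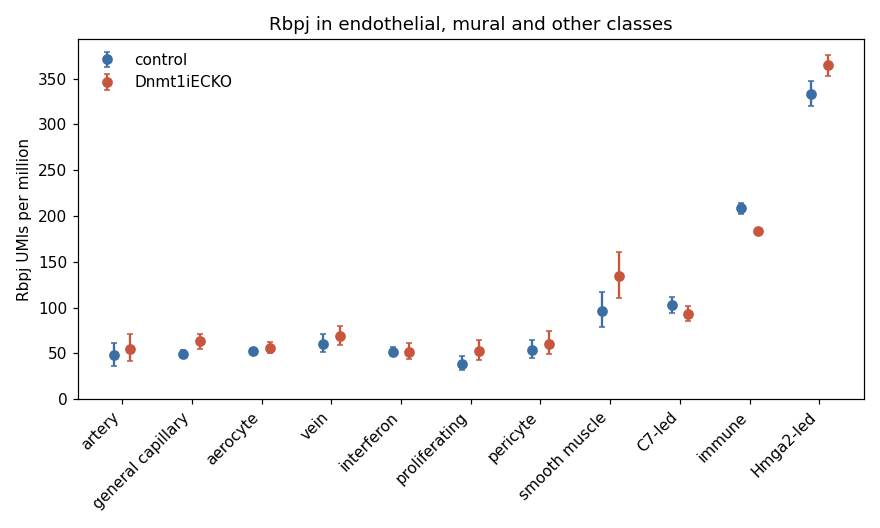
*Rbpj* level in CPM in 6 endothelial classes, both mural classes and 3 other classes, with 1 point per library and exact 95% Poisson intervals. The endothelial classes lie at or below 68.9 CPM, and the immune cells and the *Hmga2*-led cluster lie at or above 183 CPM.

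Of the target genes, *Hey1*, a repressor of the Hey family induced in arteries, had the steepest range within endothelium. It lies at chr3:8663359-8667256 on the minus strand. Artery-like cells held 108 CPM [90.4, 127] in control and 141 CPM [119, 166] in Dnmt1iECKO. General capillary-like cells held 88.4 and 94.5 CPM and interferon-responding cells 50.8 and 61.2 CPM. Aerocyte-like cells (12.0 and 22.6 CPM) and *Selp*-led vein-like cells (6.44 and 7.15 CPM) were low, although AT2 cells had 1.72 and 1.22 CPM. General capillary-like cells exceeded vein-like cells 13.7-fold [8.28, 24.6] in control and 13.2-fold [8.34, 22.2] in Dnmt1iECKO, and artery-like cells did so 16.7-fold [9.78, 30.6] and 19.8-fold [12.2, 33.7].

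The same order held for cells chosen by marker pairs instead of clusters. Cells with *Gja5* and *Bmx*, 35 and 30 in number, had *Hey1* at 165 and 149 CPM. Cells with *Kit* and *Bmp6* had 62.9 and 69.9 CPM, cells with *Ednrb* and *Car4* 7.12 and 7.48 CPM, and cells with *Slc6a2* and *Selp* 2.09 and 2.42 CPM. The *Kit* and *Bmp6* set held 2205 and 878 cells, 1263 of them in the general capillary-like cluster. The *Ednrb* and *Car4* set held 1184 and 366 cells, 1273 of them in the aerocyte-like cluster. *Notch3* was 12.1 and 14.6 CPM in the former set and 14.55 and 8.51 CPM in the latter, against at most 1.54 CPM in those clusters. Thinned to 2000 UMIs, 14.7% [12.7, 16.9] of control and 13.1% [9.98, 16.8] of Dnmt1iECKO general capillary-like cells carried a *Hey1* UMI (42.3% and 39.1% unthinned, median depths 8625 and 7700 UMIs), against 1.53% [0.185, 5.41] and 1.33% [0.161, 4.70] of vein-like cells (6.87% and 7.90% unthinned, median depths 14796 and 13470 UMIs). No AT2 cell of 116 and 47 did, which allows up to 3.13% and 7.55%, so the thinned share did not separate vein-like cells from AT2 cells.

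*Heyl*, the Hey-family target of mural cells, lies at chr4:123233556-123249875 on the plus strand. It was 116 CPM [95.9, 138] and 119 CPM [97.3, 145] in smooth muscle-like cells and 70.5 CPM [60.2, 82.0] and 59.4 CPM [47.6, 73.1] in pericyte-like cells. Smooth muscle-like cells exceeded pericyte-like cells 1.64-fold [1.29, 2.08] in control and 2.01-fold [1.50, 2.70] in Dnmt1iECKO. That order did not hold in cells without *Cdh5* and *Pecam1* UMIs, where pericyte-like cells had 210 and 275 CPM and smooth muscle-like cells 98.0 and 128 CPM. A cluster led by *C7* held 33.6 and 41.2 CPM. In every endothelial class *Heyl* rested on 8 UMIs or fewer per library.

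*Hes1*, a target repressor of the Hes family that other signals also induce, lies at chr16:30064384-30067796 on the plus strand. Control levels ran from 106 CPM [89.0, 125] in artery-like cells to 168 CPM [151, 185] in vein-like cells and 306 CPM [256, 362] in the 31 lymphatic-like cells. General capillary-like cells (140 CPM), aerocyte-like cells (141 CPM) and interferon-responding cells (153 CPM) lay close together, and pericyte-like cells held 122 CPM. *Hes1* thus had a different order from *Hey1* in control, with vein-like cells 1.58-fold [1.30, 1.93] above artery-like cells. AT2 cells held 32.0 CPM, immune cells 12.0 CPM and ciliated cells 304 CPM.

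For each member, the genes with the most similar pattern were taken over 47 points, each 1 class in 1 library, by Pearson correlation of log2(CPM + 10) among 14734 genes. Points share libraries and depth, and members of 1 cluster share cells, so these values describe the pattern only. *Notch4* ran closest to *Arhgef15* (r = 0.979), *Ushbp1* (0.976) and *Tie1* (0.972), which are endothelial genes. *Notch3* ran closest to *Kcnk3* (0.979), *Vtn* (0.967) and *Gucy1a2* (0.952), and *Heyl* to *Rasl12* (0.955), *Mark1* (0.942) and *Tbx5* (0.939). *Hey1* ran closest to *Sema3g* (0.953), *Mcf2l* (0.930) and *Efnb2* (0.925), and *Dll1* to *Grrp1* (0.924), *Plvap* (0.923) and *Slk* (0.913). *Jag2* ran closest to *Sox18* (0.944), *Ushbp1* (0.944) and *Arap3* (0.942), and *Notch1* to *Dgkh* (0.950), *Pcnx* (0.949) and *Shank3* (0.949).

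*Jag1* had no close partner, with *Me3* at r = 0.740 ahead of *Pear1* (0.696) and *Ntn1* (0.691). *Hes1* ran with *Wwc2* (0.907), *Galnt18* (0.871) and *Strn3* (0.871), and *Rbpj* with *S100a4* (0.955), *Pla2g7* (0.941) and *Tgfbi* (0.938), genes of non-endothelial cells. Among the members themselves the closest pairs were *Notch4* with *Jag2* (0.924), *Notch1* with *Notch4* (0.923) and *Notch3* with *Heyl* (0.906).

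The next question was whether loss of *Dnmt1* in endothelium changed these levels. Over all gated cells none of the 10 members was past the fold, against 15.0% of the 15403 genes that met the minimum. Receptor levels were 171 and 147 CPM for *Notch1*, 48.9 and 45.3 CPM for *Notch4* and 13.0 and 14.1 CPM for *Notch3*, control first. Ligand levels were 24.3 and 21.5 CPM for *Jag1*, 31.1 and 24.0 CPM for *Jag2* and 38.7 and 31.8 CPM for *Dll1*. *Hey1* stood at 39.4 and 38.2 CPM and *Heyl* at 4.65 and 4.97 CPM. The median log2 ratio of the 10 was -0.14, against 0.01 over all genes. The members closest to the fold were *Hes1*, at 123 and 87.0 CPM (log2 ratio -0.50 [-0.55, -0.44], short of 0.5 before rounding), and *Rbpj*, at 73.8 and 101 CPM (0.45 [0.39, 0.51]).

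The gate also passed cells from non-endothelial clusters, and their share differed between the libraries. The *Hmga2*-led cluster gave 4.25% of gated UMIs in control and 7.37% in Dnmt1iECKO, the *Ube2c*-led cluster 3.58% and 9.36%, and the *C7*-led cluster 2.40% and 3.98%. In *Cdh5*-high clusters *Rbpj* was 51.9 and 56.3 CPM (log2 ratio 0.12 [0.03, 0.21]). In that set 0 of the 10 members were past the fold, against 10.8% of all genes. Ratios were -0.05 for *Notch1*, 0.07 for *Notch4*, 0.10 for *Jag1*, -0.14 for *Jag2*, -0.06 for *Dll1* and 0.18 for *Hey1*. *Hes1* was 136 and 105 CPM there (-0.37 [-0.43, -0.31]). *Notch3* (2.32 and 3.14 CPM, 0.44 [0.02, 0.84]) and *Heyl* (1.01 and 1.53 CPM, 0.61 [-0.01, 1.21]) were at low levels. The median of the 10 was 0.09, against -0.01 over all genes, and *Hes1* was the member with the lowest ratio. These clusters still included unnamed ones led by genes of other cell types, such as *Inmt*, *Scgb1a1*, *Mfap4*, *Akap5* and *Cox4i2*, and *Sftpc* stood at 210 and 57.3 CPM over the set. Marker sums moved with the library as well. The 7 artery markers summed to 341 and 528 CPM (7 of 7 higher), the 8 vein markers to 701 and 1487 CPM (8 of 8 higher) and the 6 aerocyte markers to 2273 and 1559 CPM (0 of 6 higher), and their part in these ratios was not tested.

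Over the 8 named endothelial classes alone, 3669 control and 1462 Dnmt1iECKO cells, 0 of the 9 members with enough UMIs were past the fold, against 10.2% of all genes. *Rbpj* was 51.2 and 58.3 CPM there (0.19 [0.08, 0.29]) and *Hes1* 143 and 107 CPM (-0.42 [-0.50, -0.35]). *Jag1* (24.1 and 27.3 CPM, 0.18 [0.03, 0.34]) and *Hey1* (43.4 and 47.6 CPM, 0.14 [0.02, 0.25]) had ratios above 0, whereas theirs over all gated cells were below 0.

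**Figure D3:**
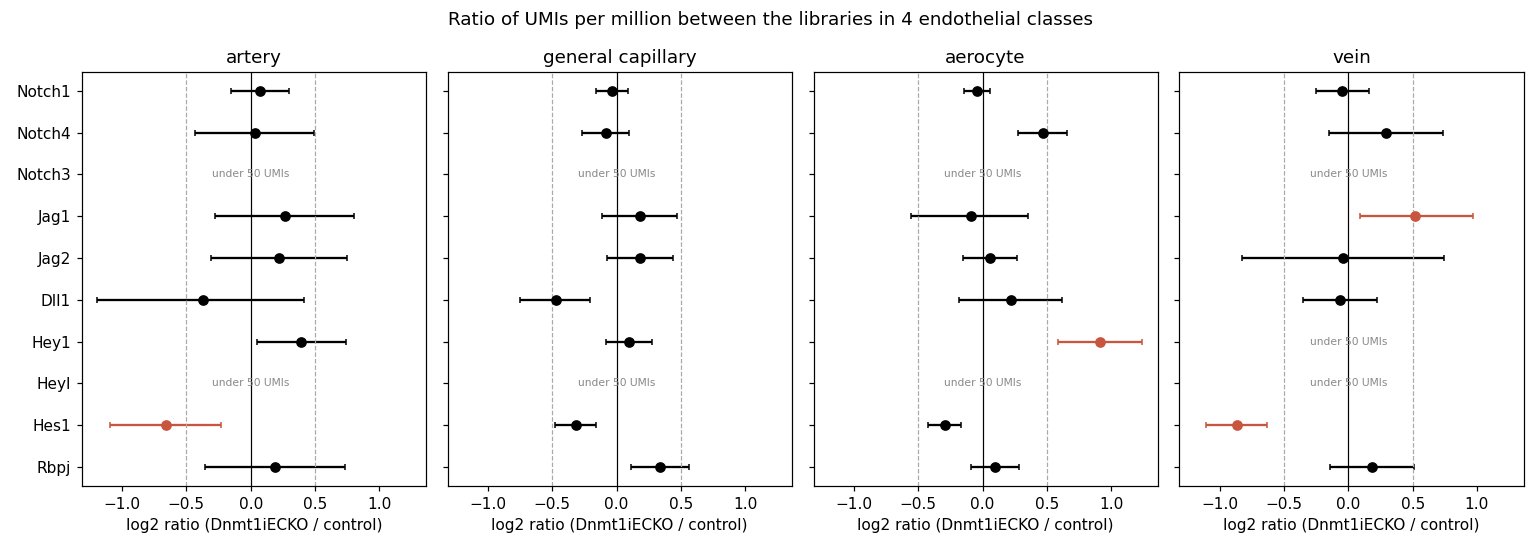
Log2 ratio of Dnmt1iECKO over control for each member in the artery-like, general capillary-like, aerocyte-like and vein-like classes, with exact conditional 95% intervals, a solid line at 0, dashed lines at 0.5 and -0.5, and members past the fold in red. *Notch1* lies between -0.05 and 0.07 in these classes, and the members in red are *Hes1* in artery-like and vein-like cells, *Hey1* in aerocyte-like cells and *Jag1* in vein-like cells.

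*Hes1* had the most uniform direction. Its ratio was below 0 in 8 of 8 endothelial classes and the interval was below 0 in 7 of them. In vein-like cells it fell from 168 CPM to 91.8 CPM [80.7, 104] (log2 ratio -0.87 [-1.10, -0.63]). In the same cells the 8 vein markers summed to 7885 and 9778 CPM (7 of 8 higher), the 6 interferon markers to 764 and 587 CPM (1 of 6 higher) and the 6 aerocyte markers to 249.5 and 126 CPM (0 of the 5 with enough UMIs higher), and their part was not tested. With *Jag1*, it was past the fold there, 2 of 7 members with enough UMIs against 6.94% of all genes. In artery-like cells it fell from 106 CPM to 67.2 CPM [52.4, 84.9] (-0.66 [-1.09, -0.23]) and was the 1 of 8 members past the fold, against 12.8% of all genes. With clusters drawn at resolution 3.0 the artery-like values were 90.5 and 69.3 CPM (-0.38 [-0.94, 0.16]), short of the fold. The class held 62 and 67 gated cells there, against 117 and 86 at resolution 2.0. An unnamed cluster led by *Fabp4*, of 57 and 21 cells before the gate, stood apart at resolution 3.0. The class at resolution 2.0 thus need not have had the same make-up in both libraries, and the part of this was not tested. The 8 vein markers summed to 1234 and 2133 CPM and the 6 aerocyte markers to 261 and 103 CPM in artery-like cells. The 6 interferon markers summed to 445 and 645 CPM there (5 of 6 higher). The 7 smooth muscle markers summed to 125 and 39.4 CPM and the 8 pericyte markers to 31.7 and 2.88 CPM. The part of these markers was not tested. Lymphatic-like cells went from 306 CPM to 190 CPM [139, 254] (-0.69 [-1.20, -0.19]), where only 2 members had enough UMIs and 16.9% of all genes were past the fold. In these few cells the 7 artery markers summed to 217 and 442 CPM and the 6 interferon markers to 246 and 446.5 CPM. The 6 general capillary markers summed to 933 and 492 CPM there, and the part of these markers was not tested.

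The ratio was smaller in the capillary classes. It was -0.32 [-0.48, -0.16] in general capillary-like cells (140 and 112 CPM), where 0 of 8 members were past the fold against 5.74% of all genes. It was -0.29 [-0.42, -0.17] in aerocyte-like cells (141 and 115 CPM), -0.45 [-0.64, -0.27] in interferon-responding cells (153 and 112 CPM) and -0.46 [-0.74, -0.19] in proliferating cells (130 and 94.7 CPM). *Vegfc*-led vein-like cells were the exception, at 110 and 107 CPM (-0.05 [-0.43, 0.33]). An unnamed cluster led by *Ubd* held 113 and 117 CPM (0.05 [-0.18, 0.27]). *Hes1* was past the fold downwards in the unnamed clusters led by *AY036118*, by *Cox4i2* and by *Nrgn* with *Hba-a1*. It was not past the fold in those led by *Inmt*, *Scgb1a1*, *Akap5* or *Nrgn* with *Pf4*. A cluster named from platelet markers also had it past the fold downwards. In cells chosen by marker pairs *Hes1* was 133 and 80.0 CPM with *Slc6a2* and *Selp*, 101 and 61.1 CPM with *Gja5* and *Bmx*, 134 and 120 CPM with *Ednrb* and *Car4*, and 130 and 114 CPM with *Kit* and *Bmp6*.

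Outside endothelium the ratio of *Hes1* varied. It was 0.05 [-0.45, 0.53] in AT2 cells, 0.01 [-0.20, 0.21] in the *C7*-led cluster, -0.03 [-0.25, 0.20] in the *Hmga2*-led cluster and 0.08 [-0.19, 0.35] in pericyte-like cells. It was past the fold in the *Dcn*-led cluster (65.3 and 34.9 CPM, -0.90 [-1.53, -0.27]) and the *Ube2c*-led cluster (46.7 and 21.3 CPM, -1.13 [-1.43, -0.84]), so the lower level was not limited to endothelial classes. The summed level of 15 immediate early and stress genes, which rise on tissue dissociation, had log2 ratios of 0.20 in artery-like, 0.27 in general capillary-like, 0.14 in aerocyte-like and -0.02 in vein-like cells, and its part was not tested. Among the endothelial and mural classes that sum was highest in interferon-responding cells, at 26999 and 29145 CPM (0.11). It was 8164 and 9838 CPM in general capillary-like cells. After thinning, a *Hes1* UMI was found in 22.9% [16.0, 31.1] of control and 13.9% [8.82, 20.5] of Dnmt1iECKO vein-like cells (64.1% and 55.9% unthinned). In AT2 cells, much deeper before thinning, the thinned shares were 9.48% [4.83, 16.3] and 2.13% [0.0539, 11.3]. The shares of 21.0% and 20.8% in aerocyte-like cells and of 20.2% and 19.6% in general capillary-like cells lay within each other's intervals, although the CPM differed. In interferon-responding cells the thinned share was 20.9% [17.7, 24.4] in control and 23.2% [17.6, 29.5] in Dnmt1iECKO (59.0% and 55.3% unthinned). At 5000 UMIs it was 39.4% [35.4, 43.6] and 33.0% [26.5, 40.0] there, and 40.6% [37.7, 43.6] and 43.4% [38.2, 48.7] in aerocyte-like cells, so the order of these shares depended on the depth and all of these intervals overlapped.

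**Figure D4:**
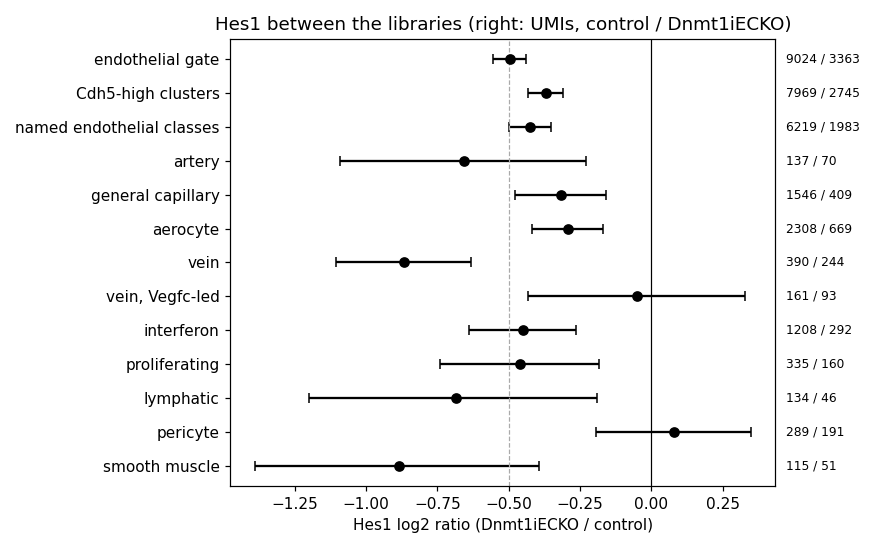
Log2 ratio of *Hes1*, Dnmt1iECKO over control, in all gated cells, *Cdh5*-high clusters, the 8 named endothelial classes together, each endothelial class and both mural classes, with exact conditional 95% intervals, a solid line at 0, a dashed line at -0.5 and the UMIs of both libraries at the right. The ratio is -0.87 in vein-like and -0.66 in artery-like cells, and the intervals of *Vegfc*-led vein-like and pericyte-like cells contain 0.

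In aerocyte-like cells *Hey1* was higher in the Dnmt1iECKO library. It rose from 12.0 CPM [10.4, 13.8] to 22.6 CPM [18.9, 26.8] (log2 ratio 0.92 [0.59, 1.24]), the 1 of 8 members past the fold in a class where 6.35% of all genes were. *Notch4* was 42.4 and 58.6 CPM (0.47 [0.28, 0.66]), short of the fold. In cells chosen by *Ednrb* and *Car4*, however, *Hey1* was 7.12 and 7.48 CPM (0.07), so its rise depended on how the class was drawn. The sum of the 7 artery markers was 64.7 CPM in control and 119 CPM in Dnmt1iECKO aerocyte-like cells, and that of the 6 general capillary markers was 780.5 and 1007 CPM (5 of 6 higher). Their part in the rise of *Hey1* was not tested. In artery-like cells *Hey1* had a ratio of 0.39 [0.05, 0.74], and in general capillary-like cells of 0.10 [-0.08, 0.28]. Cells chosen by *Gja5* and *Bmx* had *Hey1* at 165 and 149 CPM, so its direction in arteries also depended on how the class was drawn. With clusters at resolution 3.0 *Hey1* was 138 and 160 CPM in artery-like cells.

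*Jag1* and *Dll1* were past the fold in single classes and in both directions, and *Jag2* in no endothelial class. *Jag2* came close in *Vegfc*-led vein-like cells, at 34.2 and 19.5 CPM (-0.81 [-1.70, 0.0045]), and was past the fold there under 4 of 5 alternatives. In interferon-responding cells it was 30.6 and 22.2 CPM (-0.46 [-0.90, -0.04]). In *Selp*-led vein-like cells *Jag1* rose from 30.9 CPM [24.2, 38.9] to 44.4 CPM [36.8, 53.2] (0.52 [0.09, 0.97]). That ratio was short of the fold with clusters at resolution 1.0 (0.41) and 3.0 (0.45), with the mean CPM over cells (0.45) and in cells with *Slc6a2* and *Selp* (0.45 [-0.14, 1.07]). In interferon-responding cells it fell from 31.2 CPM [27.5, 35.4] to 21.0 CPM [15.9, 27.4] (-0.57 [-1.02, -0.14]), the 1 of 8 members past the fold there against 7.06% of all genes. The 6 interferon markers of that class summed to 1405 and 1096 CPM (0 of 6 higher) and the 8 vein markers to 440.4 and 325 CPM (2 of the 7 with enough UMIs higher), and their part was not tested. *Dll1* fell from 78.1 CPM [64.4, 93.8] to 44.7 CPM [31.8, 61.1] in *Vegfc*-led vein-like cells (-0.81 [-1.37, -0.27]), where 1 of 8 members and 7.75% of all genes were past the fold. The 6 interferon markers summed to 525 and 301 CPM in that class (0 of the 5 with enough UMIs higher), and their part was not tested. The class was named at resolution 2.0 alone. At resolution 3.0 an unnamed *Vegfc*-led cluster gave a *Dll1* ratio of -0.50 [-0.94, -0.08], and at resolution 1.0 a single vein-like cluster gave 85.2 and 74.9 CPM (-0.19 [-0.44, 0.06]). In general capillary-like cells its ratio was -0.47 [-0.75, -0.20], short of the fold. In proliferating cells *Dll1* rose from 38.5 to 55.6 CPM (0.53 [0.11, 0.95]) and *Hey1* fell from 42.4 to 29.0 CPM (-0.55 [-1.07, -0.05]), 2 of 8 members in a class where 8.23% of all genes were past the fold. The *Dll1* ratio was short of the fold at resolution 1.0 (0.47) and with the mean CPM over cells (0.30 [-0.13, 0.72]). The 8 vein markers summed to 452 and 1064 CPM in proliferating cells, 8 of 8 higher. The 7 artery markers summed to 288 and 415 CPM (4 of the 4 with enough UMIs higher). The 6 lymphatic markers summed to 1150 and 516.5 CPM (0 of the 5 with enough UMIs higher). The part of these markers was not tested. No ligand kept 1 direction across the endothelial classes.

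*Notch1* was the steadiest member. Its ratio stood between -0.13 and 0.07 in the 7 blood endothelial classes, and all 8 intervals, the lymphatic-like one at -0.42 [-1.05, 0.18] included, contained 0. In control general capillary-like and aerocyte-like cells it rested on 2197 and 3268 UMIs, and the intervals of the ratio there, [-0.16, 0.08] and [-0.14, 0.05], left out a change past the fold as far as counting error goes. *Rbpj* had ratios between -0.03 and 0.44 in the 7 classes with enough UMIs. Its interval was above 0 in general capillary-like cells (49.8 and 63.0 CPM, 0.34 [0.11, 0.56]) and in proliferating cells (0.44 [0.01, 0.86]). In cells chosen by *Kit* and *Bmp6*, however, *Rbpj* was 57.4 and 56.4 CPM. Its general capillary-like rise was thus not seen in that wider set, which also held cells of other clusters.

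In pericyte-like cells 0 of the 10 members were past the fold, against 8.999% of all genes. *Notch3* had a ratio of -0.13 [-0.30, 0.04], *Heyl* of -0.25 [-0.64, 0.13], *Hes1* of 0.08 [-0.19, 0.35] and *Notch1* of 0.10 [-0.10, 0.29]. In the few cells without *Cdh5* and *Pecam1* UMIs *Hes1* rested on 15 and 16 UMIs, with a ratio of 1.37 [0.26, 2.49]. The summed level of 8 pericyte markers was 2948 and 2339 CPM. Markers of other cells moved too, with 6 macrophage and monocyte markers at 74.3 and 820 CPM, 4 neutrophil markers at 226 and 14.8 CPM and 5 AT2 markers at 370 and 66.8 CPM, and their part was not tested.

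In smooth muscle-like cells 2 of 6 members were past the fold, against 21.1% of all genes. *Hes1* fell from 109 CPM [89.9, 131] to 59.0 CPM [43.9, 77.6] (-0.88 [-1.39, -0.40]), and *Notch1* fell from 87.1 CPM [70.2, 107] to 46.3 CPM [33.1, 63.0] (-0.91 [-1.49, -0.36]). Endothelial RNA moved with both, since *Cdh5* was 310 CPM in control and 67.1 CPM in Dnmt1iECKO smooth muscle-like cells. In the cells without *Cdh5* and *Pecam1* UMIs the ratio of *Notch1* turned to 0.51 [-0.57, 1.64], while that of *Hes1* was -0.74 [-1.42, -0.08]. In cells taken by at least 3 smooth muscle markers in place of the cluster *Hes1* was 68.3 and 56.9 CPM (-0.26 [-0.54, 0.01]), short of the fold. *Jag2* went from 17 UMIs (16.1 CPM) to 0, with a floor of 3.47 CPM and an interval of the log2 ratio that lay below -1.76, and *Dll1* from 14 UMIs to 1 (-3.52 [-8.92, -0.80]). Both ligands were at or near 0 in smooth muscle-like cells without endothelial UMIs in either library. *Notch3* had a ratio of -0.46 [-0.71, -0.21], *Heyl* of 0.05 [-0.35, 0.44] and *Rbpj* of 0.48 [0.08, 0.87], all short of the fold. The sum of 7 smooth muscle markers was 15071 and 19433 CPM and that of 8 pericyte markers 1774 and 949 CPM. The 6 macrophage and monocyte markers summed to 18.0 and 130 CPM and the 6 general capillary markers to 479 and 209 CPM. The 5 alveolar type 1 markers summed to 119 and 34.7 CPM, and the part of all these markers was not tested.

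A list of 70 further genes of the pathway, from ligand activation to arterial genes linked to Notch, gave the wider picture. Over all gated cells 64 had enough UMIs, of which 5 were past the fold upwards and 0 downwards: the turnover factor *Dtx4* (0.82), the *Rbpj*-binding repressor *Bend6* (1.23), the target genes *Hey2* (0.65) and *Myc* (0.67), and *Ltbp4* (0.60). Of all 15403 genes 1797 were past it upwards and 506 downwards, 15.0% together. In *Cdh5*-high clusters 3 of 62 were higher, *Hey2* (1.15), *Myc* (0.87) and *Ltbp4* (0.76), and 0 were lower, against 10.8% of all genes in either direction. The median ratios of the list were -0.10 and -0.02, against 0.01 and -0.01 over all genes.

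In artery-like cells 6 of 48 were higher, the co-activators *Maml1* (0.94) and *Maml3* (0.59), the arterial connexin *Gja4* (0.74), *Cir1* (0.71), *Id1* (0.54) and *Ltbp4* (0.57). The 3 lower ones were the deacetylase *Hdac1* (-0.53), the Notch inhibitor *Numb* (-0.66) and the ubiquitin ligase subunit *Fbxw7* (-0.80), which marks the Notch intracellular domain for degradation. That was 9 of 48, against 12.8% of all genes. The class went from 117 and 86 cells to 62 and 67 at resolution 3.0, and the part of its make-up in these ratios was not tested. In general capillary-like cells 0 of 58 were higher and 2 were lower, *Fbxw7* (-0.51) and *Dtx3* (-0.52), against 5.74% of all genes. In aerocyte-like cells the arterial transcription factor *Sox17* alone of 58 was past the fold, at 60.3 and 89.0 CPM (0.56), against 6.35% of all genes. In vein-like cells 1 of 52 was higher, the cyclin *Ccnd1* (0.75), and 3 were lower, the *Rbpj* co-repressor *Spen* (-0.57), *Id1* (-0.52) and *Gja4* (-0.53), against 6.94% of all genes. *Gja4* thus had opposite signs in artery-like and vein-like cells, a difference that was not tested.

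In *Vegfc*-led vein-like cells 0 of 45 were higher and 3 were lower, the receptor glycosyltransferase *Mfng* (-0.84), *Spen* (-0.60) and the arterial ligand *Efnb2* (-0.88), against 7.75% of all genes. In interferon-responding cells *Ltbp4* (0.52) was higher and the ligand-activating ubiquitin ligase *Neurl1b* (-1.10) and *Spen* (-0.51) were lower, of 58, against 7.06% of all genes. In proliferating cells *Ncstn* (0.85), a subunit of the gamma-secretase that cuts the receptor, and *Myc* (1.21) were higher of 52 and 0 were lower, against 8.23% of all genes. In lymphatic-like cells *Ccnd1* (0.79) was higher and *Maml2* (-0.68), *Ncor1* (-0.68) and *Efnb2* (-1.14) were lower, of 23, against 16.9% of all genes.

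*Dll4* was never past the fold in a blood endothelial class. Its ratio was 0.24 [-0.09, 0.57] in artery-like, 0.07 [-0.12, 0.25] in general capillary-like, 0.11 [-0.04, 0.25] in aerocyte-like and -0.04 [-0.84, 0.77] in vein-like cells. It came closest in interferon-responding cells, at 81.0 and 112 CPM (0.47 [0.27, 0.67]). *Notch2* had intervals that contained 0 in all 8 endothelial classes and both mural classes. *Egfl7*, a secreted endothelial protein that binds Notch receptors, had ratios from -0.39 to 0.04 in the endothelial classes.

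In pericyte-like cells 1 of 54 was higher, the *Rbpj* co-repressor *Cir1* (0.51), and 2 were lower, *Neurl3* (-0.54) and the feedback inhibitor *Nrarp*, at 79.8 and 48.6 CPM (-0.72), against 8.999% of all genes. In smooth muscle-like cells 2 of 45 were higher, *Maml2* (0.51) and *Itch* (0.76), and 15 were lower, against 21.1% of all genes (530 higher and 749 lower of 6052). The lower ones included *Nrarp* at 63.4 and 22.0 CPM (-1.53) and the receptor-cutting proteases *Adam10* (-0.85) and *Adam17* (-0.74), with *Neurl3* (-0.73), *Maml1* (-1.33), *Tle1* (-0.90), *Numb* (-0.95), *Ccnd1* (-2.54), *Gata2* (-1.50) and *Gja4* (-1.38). The other 5 were genes known from endothelium, *Egfl7* (197 and 37.0 CPM, -2.41), *Unc5b* (-2.27), *Sox7* (-1.52), *Acvrl1* (-1.49) and *Nrp1* (-1.04), beside the lower *Cdh5* given above. The part of endothelial RNA in these 15 was not tested.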

How the data were processed

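Live CD31+CD45- cells were sorted and sequenced with 10x Genomics 3′ chemistry. The deposited values are raw UMI counts per gene and cell, made by the authors with Cell Ranger (9.0.1 per the file headers) on mm10, with no normalization. Cells with over 10% mitochondrial UMIs or under 500 detected genes were left out, and the highest Scrublet scores were removed as doublets at 0.4% per 1000 cells (257 control and 263 Dnmt1iECKO cells).

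Cells of both libraries were clustered together on 2000 variable genes that excluded the members, with 30 components and 15 neighbours (Leiden, resolution 2.0), and clusters were named from markers. The thresholds for naming were chosen with the clusters already in view, and the rebuilt names need not match those of the study. UMIs were summed per class and library, and shares of cells were taken at 2000 UMIs with exact Clopper-Pearson intervals. Ratios were checked on simulated counts that held counting error alone. That check covers the calculation and says nothing of spread between cells or mice or of shifts in composition. With 1 library per group there was no test and cells were not treated as replicates. All 10 members, every further receptor and ligand, and the other pathway genes past the fold were named. The members and lists were chosen with earlier results of these data known. Alternatives covered filters, doublet rate, resolution, marker pairs, normalization, depth and UMI minimum. Sequences came from the RefSeq table on GRCm38.p6 and positions from GENCODE vM21, whose gene identifiers matched those of the files for all members. Of the genes in the files, some on the opposite strand overlap *Notch1*, *Notch3* and *Rbpj*. Python 3.11.15, NumPy 2.4.6, SciPy 1.17.1, pandas 2.3.3, Scanpy 1.11.5, leidenalg 0.10.2 and matplotlib 3.10.9 were used.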

Additional observations from a re-analysis of the deposited data

Results flagged for a closer look

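For 3 members the log2 ratio, Dnmt1iECKO over control, was past the fold in opposite directions in 2 endothelial classes, and none of these differences between classes was tested. In the classes named below, from 6.35% (aerocyte-like) to 8.23% (proliferating) of all genes were past the fold in either direction. The share of all genes with opposite directions in 2 classes is not given, so the pattern was not read as particular to the members. *Jag1* had 0.52 in *Selp*-led vein-like cells and -0.57 in interferon-responding cells, and the former was short of the fold at 0.41 and 0.45 with clusters at resolutions 1.0 and 3.0, and at 0.45 [-0.14, 1.07] in cells with *Slc6a2* and *Selp*. *Dll1* had -0.81 in *Vegfc*-led vein-like cells and 0.53 in proliferating cells. The former was -0.50 in an unnamed *Vegfc*-led cluster at resolution 3.0 and -0.19 in the single vein-like cluster at resolution 1.0, and the latter was 0.47 at resolution 1.0 and 0.30 with the mean CPM over cells. *Hey1* had 0.92 in aerocyte-like cells and -0.55 in proliferating cells, and its aerocyte-like value was 0.07 in cells chosen by *Ednrb* and *Car4*.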

How the results depend on the processing

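Over all gated cells *Hes1* was the 1 member past the fold downwards with a 5% mitochondrial limit, a doublet rate of 0.8%, without clusters named as other cell types and with size factors, and its ratio lay between -0.53 and -0.34 under all 14 alternatives. Without cells holding *Epcam*, *Cspg4* or *Myh11*, 1 member was past the fold upwards (*Heyl*), as was 1 (*Rbpj*) without the cells highest in dissociation genes. In artery-like cells the count downwards was 0 at resolution 3.0, and the count upwards was 1 (*Hey1*) with the mean CPM over cells. In vein-like cells the count upwards was 0 at resolutions 1.0 and 3.0 and with the mean CPM, and cells with *Slc6a2* and *Selp* had *Notch4* (1.17) in place of *Jag1*. In *Vegfc*-led vein-like cells the count downwards was 2 (*Jag2* and *Dll1*) at resolution 3.0, with size factors, with the mean CPM and at a doublet rate of 0.8%, and the count upwards was 1 (*Hey1*) with the mean CPM. At that doublet rate it was 2 downwards in interferon-responding (*Jag1* and *Jag2*) and proliferating cells (*Hey1* and *Hes1*), and proliferating cells had 0 upwards at resolution 1.0 and *Rbpj* in place of *Dll1* with the mean CPM. In cells with *Ednrb* and *Car4* the count was 0 upwards and 3 downwards (*Notch3*, *Dll1* and *Heyl*). Taken by at least 3 markers in place of clusters, pericyte-like cells had 2 downwards (*Jag2* and *Hes1*) and smooth muscle-like cells 5 (*Notch1*, *Notch4*, *Jag1*, *Jag2* and *Dll1*). Smooth muscle-like cells without *Cdh5* and *Pecam1* UMIs had 1 downwards, and *Notch1* turned to 0.51 there. The cause was not tested. The share of all genes past the fold is not given for these alternatives. The counts therefore show how the calls moved with the setting and nothing particular to the members. Of the 140 gated ratios 80 stayed within the counting interval of the reported value, and 60 did not. *Hes1* stayed below 0 in vein-like (-0.87 to -0.74), artery-like (-0.73 to -0.38), general capillary-like (-0.41 to -0.19) and aerocyte-like cells (-0.31 to -0.15). The pericyte-like cluster was not found at resolution 1.0. The interferon-responding class was not found at resolution 1.0. The *Cdh5*-high clusters, the named endothelial classes alone, the ratio to *Pdgfrb* and the alternatives for *Vegfc*-led, interferon-responding, proliferating and lymphatic-like cells were chosen after seeing the data. Depth limits *Notch3* and *Heyl* in endothelium and most members in lymphatic-like cells. With 1 library per group no replicate could be left out. No paired analysis was possible because each group had 1 library.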

Other observations

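Outside vessels, ciliated cells had the highest *Jag1* level of the named classes, at 188 CPM [158, 222] in control and 109 CPM [81.5, 142] in Dnmt1iECKO (log2 ratio -0.79 [-1.27, -0.32]), and *Hes1* at 304 and 257 CPM. A *C7*-led cluster held *Heyl* at 33.6 CPM [28.8, 38.9] and 41.2 CPM [36.1, 46.7], with *Notch3* at 8.48 and 8.92 CPM.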
